A study of Mus musculus with 10 samples.

Results

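Complex I subunits and assembly factors were taken from the deposited table of prefrontal cortex expression as every row whose gene symbol begins with Nduf. This gave 51 of the 15914 listed genes: 43 rows named as subunits (Ndufa, Ndufb, Ndufc, Ndufs and Ndufv) and 8 rows named as assembly factors (Ndufaf). RNA had been sequenced from wild-type (WT) C57BL/6J mice in 10 libraries. The 5 hypoxia + PBM libraries are from animals that underwent hypobaric hypoxia (low oxygen from reduced air pressure) and afterwards photobiomodulation, a light treatment named laser in the labels. The 5 hypoxia libraries are from animals with hypobaric hypoxia as their only named treatment. All 10 libraries therefore share the hypoxic exposure, and there is no group kept at normal pressure in the comparison. Ages, the length of the exposure and the light dose are not used here. The labels do not state that each library is a separate animal, so a p-value here reflects the spread of these libraries alone, and that spread may be technical.

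Complex I (NADH:ubiquinone oxidoreductase) is the largest enzyme of the respiratory chain. It takes electrons from NADH, passes them along a row of iron-sulfur clusters in its matrix arm to ubiquinone, and pumps protons through its membrane arm. Core subunits carry out the chemistry and are encoded partly in the nucleus and partly in mitochondrial DNA, while accessory subunits build up the shell and assembly factors help put the enzyme together without staying in it. Neurons draw most of their ATP from this chain, and complex I is also a known source of superoxide.

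No complex I gene passed the test between the groups. The 43 subunit rows had a median log2 change of -0.054 (hypoxia + PBM over hypoxia), with 37 negative and 6 positive values. The 8 assembly factor rows had a median of -0.068, with 6 negative and 2 positive. Over all 14406 tested genes the median was 0.00011 and 50.0% of the changes were negative. By limma-trend on log2(FPKM + 1), 0 of 51 members had a Benjamini-Hochberg adjusted p under 0.05, and the smallest adjusted p was 0.114, for Ndufaf4. FPKM is fragments per kilobase of gene length, scaled to the library's mapped reads. The background was 2.85% of tested genes called, of which 1.70% of the genes tested were lower and 1.15% were higher in hypoxia + PBM. At an unadjusted p under 0.05, 10 of 51 members differed, each with a negative change. The background for that threshold was 19.6% in either direction, 10.1% for negative and 9.46% for positive changes. With both directions counted, the members' share was 19.6% and lay at the background. As all 10 changes were negative, the members' share for negative changes was also 19.6%, above the background of 10.1%. This difference in shares was not tested. For 0 of 51 members did the groups not overlap, against 5.53% of all tested genes in either direction and 2.87% with hypoxia + PBM lower. A limma-voom fit on reads recovered from the FPKM values also called 0 members (background 4.04%), with 10 at an unadjusted p under 0.05 (background 20.2%). In the authors' deposited table, 0 of the 51 members had a q-value under 0.05 (background 6.40%), 10 had a p-value under 0.05 (background 19.3%) and the lowest q-value among them was 0.0610, for Ndufaf4.

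**Figure D1:**
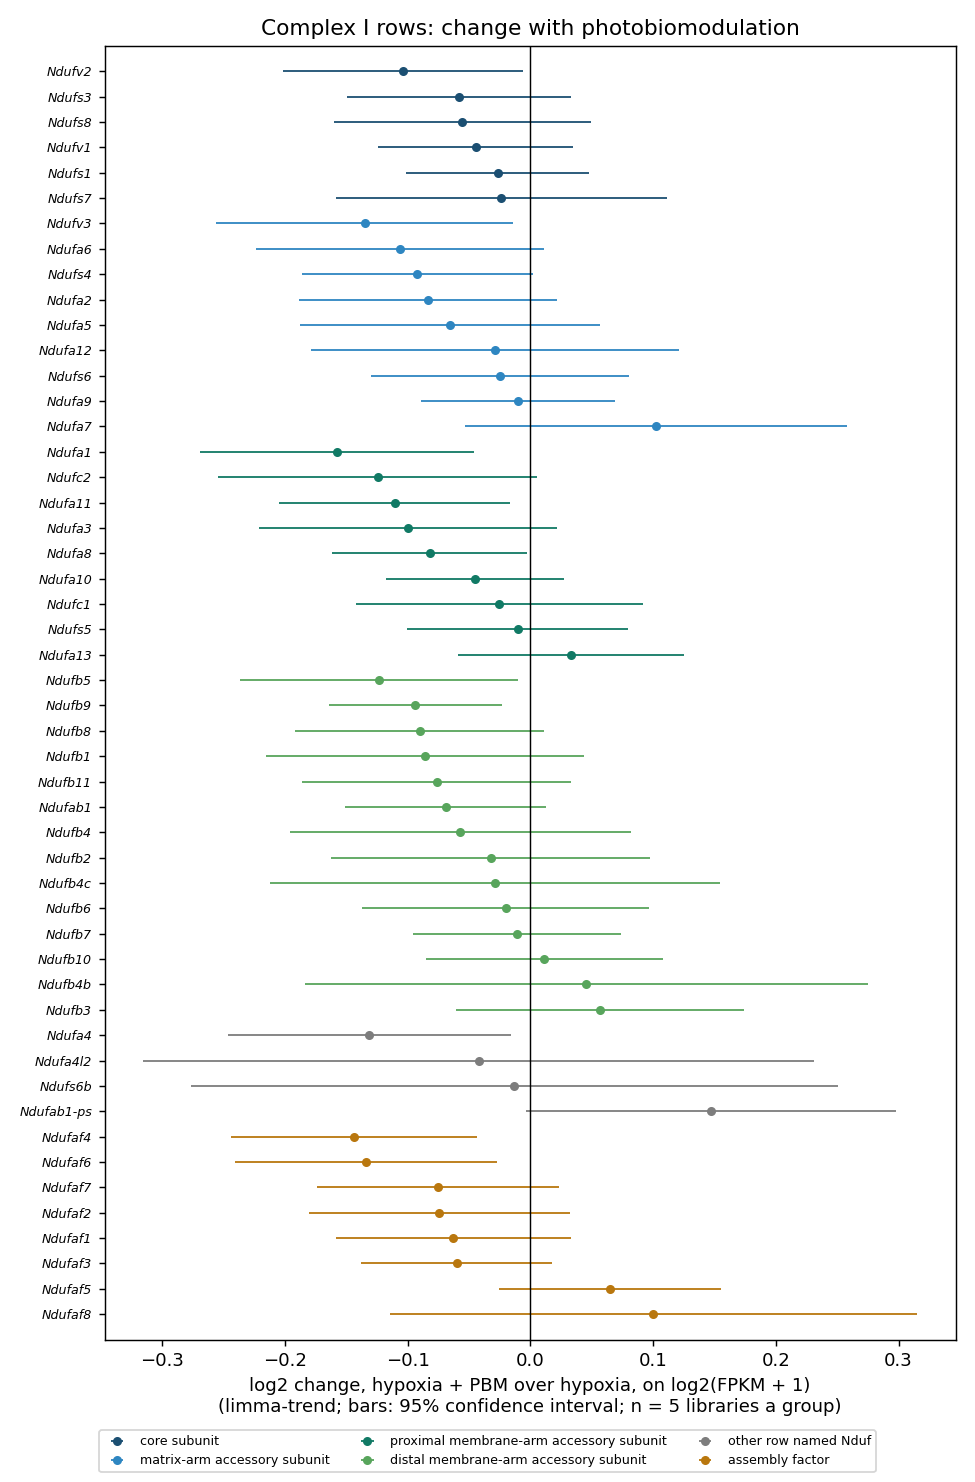
Log2 change on log2(FPKM + 1), hypoxia + PBM over hypoxia, for 50 of the 51 complex I rows grouped by role, with 95% confidence intervals from limma-trend (n = 5 libraries a group). Most points lie left of 0, and the widest intervals belong to rows with few reads such as Ndufa4l2.

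Markers of other cell types differed between the groups, and in bulk tissue fewer cells of a type and less RNA per cell cannot be told apart. The 5 markers of cortical excitatory neurons were present in both groups, with summed levels of 578 to 612 FPKM in hypoxia + PBM and 567 to 624 FPKM in hypoxia. Of these, Slc17a7 alone averaged 500 FPKM over all libraries. Among the 5 changes 4 were positive, with a median log2 change of 0.089, and 0 were called (limma-trend; 0 at an unadjusted p under 0.05). All 10 markers of medium spiny neurons, which belong to the striatum and not to cortex, were called lower, with summed levels of 150 to 285 FPKM in hypoxia + PBM and 322 to 602 FPKM in hypoxia, and none was at 0. The choroid plexus list (3 genes) had summed levels of 8.12 to 464 FPKM in hypoxia + PBM and 85.9 to 629 FPKM in hypoxia. Of 5 endothelial markers all had positive changes and 2 were called higher. Of 5 astrocyte markers 1, Aldh1l1, was called higher, while 3 had negative changes and the median log2 change was -0.14. All 5 oligodendrocyte markers had negative changes that did not pass, with a median of -0.12. For 5 inhibitory neuron, 5 microglial and 4 blood markers 0 were called, with medians of -0.0049, -0.017 and 0.27. Of the inhibitory markers 3 were at an unadjusted p under 0.05 (limma-trend; background 19.6%), 1 of them negative. At the same threshold were 4 astrocyte markers, 2 of them negative, and 2 endothelial markers, 0 of them negative. So were 1 microglial marker (Tmem119) and 1 oligodendrocyte marker (Mbp), each negative, and 0 blood markers. With the mean level of the 10 striatal markers added to the model, the median of the 43 subunit rows was 0.039 with 12 negative, and 0 of 51 members were called (limma-trend; 6 at an unadjusted p under 0.05, where the background in that fit was 6.32%). That covariate itself did not overlap between the groups, at 2.73 to 3.68 in hypoxia + PBM and 3.81 to 4.71 in hypoxia (mean log2(FPKM + 1)), so its part and that of the light cannot be told apart. Library totals lay between 29283937 and 35957148 reads.

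Confidence intervals limited how large a difference these libraries allow. Setting aside Ndufa4, Ndufa4l2 and 4 rows for copies of other subunits, 37 nuclear subunits of the complex remained, and for all 37 the 95% confidence interval of the change lay within ±0.3 on the log2 scale. The lowest bound among them was -0.27 (Ndufa1) and the highest was 0.26 (Ndufa7). Of all 51 members, 49 had an interval within ±0.3 and 32 had one within ±0.2. The 1 added to FPKM before the log narrows the intervals of low rows, so these counts do not bound their fold change. Ndufaf6, with an interval of -0.24 to -0.027, had a change of -0.13, but -0.20 with 0.1 added instead. These 37 genes were well counted, at between 1437 and 9652 reads per gene and library, and their median coefficient of variation was 5.83% in hypoxia + PBM and 5.46% in hypoxia. A p that misses the threshold does not show that the groups were alike; the intervals give the range of change that the fit leaves for each gene.

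Levels were compared as FPKM, a scale per length. The mean over 10 libraries of the 37 subunits lay between 28.7 FPKM (Ndufab1) and 278 FPKM (Ndufb9), with a median of 102 FPKM. Assembly factors had lower levels, between 1.65 FPKM (Ndufaf6) and 22.2 FPKM (Ndufaf3), with a median of 15.7 FPKM. The highest rows of all were Ndufa4 at 539 FPKM, Ndufb9 and Ndufa3 at 214 FPKM. The lowest were Ndufa4l2 at 0.908 FPKM, Ndufaf6 and Ndufb4c at 2.02 FPKM.

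Promoter sequence is a feature that the choice of members did not use. Of the 51 members, 42 matched a RefSeq promoter window of 250 bases before to 50 bases after a start site (44 windows, build GRCm38.p6, which differs from the GRCm39 build named in the submitters' processing notes). The window listed for Ndufa1 did not match a transcript of that gene in the reference annotation and is not shown, but it is counted among the 44 windows and among the 9 with ACGTG below. For Ndufa11 the last 50 bases of the window matched 0 transcripts whole, and an inner part of them matched 1. Its start site is therefore less certain. Only windows of members with the smallest p were compared with transcripts, so the other windows behind the motif shares were not checked. Of the members with the smallest p, Ndufaf4, Ndufa11 and Ndufv2 are shown, the first 2 because they hold the core of the NRF1 motif, written in capitals, and Ndufv2 because it is the core subunit with the smallest p and its window holds none of the motifs searched. Each line gives the 250 bases before the start site, read 5′ to 3′ on the gene's strand.

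Ndufaf4 (chr4:24897833-24898082, + strand): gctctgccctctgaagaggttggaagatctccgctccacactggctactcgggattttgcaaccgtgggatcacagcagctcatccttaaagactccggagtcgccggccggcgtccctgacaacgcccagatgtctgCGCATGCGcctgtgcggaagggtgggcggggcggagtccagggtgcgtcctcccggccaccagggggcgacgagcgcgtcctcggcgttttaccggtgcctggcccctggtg
Ndufa11 (chr17:56717512-56717761, + strand): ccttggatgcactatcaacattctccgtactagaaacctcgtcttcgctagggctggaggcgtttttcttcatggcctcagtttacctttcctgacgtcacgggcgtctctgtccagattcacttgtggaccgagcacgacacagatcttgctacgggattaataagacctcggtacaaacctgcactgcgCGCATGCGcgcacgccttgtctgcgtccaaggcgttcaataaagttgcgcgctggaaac
Ndufv2 (chr17:66101560-66101809, - strand): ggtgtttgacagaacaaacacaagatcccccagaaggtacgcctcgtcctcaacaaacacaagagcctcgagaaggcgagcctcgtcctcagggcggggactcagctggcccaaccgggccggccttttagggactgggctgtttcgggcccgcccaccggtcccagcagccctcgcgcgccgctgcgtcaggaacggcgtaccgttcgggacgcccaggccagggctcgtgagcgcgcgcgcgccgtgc

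Nuclear respiratory factor 1 (NRF1) is a transcription factor known for its sites in the promoters of respiratory chain genes. The core of its motif, CGCATGCG, was found in 4 of 44 member windows (9.09%), those of Ndufaf4, Ndufa11, Ndufa8 and Ndufaf5, and in 3.39% of the 14587 windows of other tested genes, with both strands searched for this and every motif. With a free base, CGCNTGCG, which includes the exact core, it was found in 15 member windows (34.1%) and in 15.3% of the others. AAGATGGC, a motif of the factor YY1, was found in 8 member windows (18.2%) and 3.87% of the others. CCGGAAG, the motif of ETS factors such as GABP, was found in 6 member windows (13.6%) and 15.3% of the others. ACGTG, the A form of the core of the hypoxia response element, was found in 9 member windows (20.5%) and 24.3% of the others. The form GCGTG was not searched. TCAAGGTCA, the motif of estrogen-related receptors, was found in 0 member windows and 0.281% of the others. The median GC content was 59.3% in member windows and 60.3% in the others. These are matches of letters and not measurements of binding.

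The 7 nuclear core subunits, which hold the flavin and the iron-sulfur clusters, all had negative changes, between -0.10 and -0.024, and none passed the test. Ndufv2, which carries an iron-sulfur cluster close to the flavin but off the main electron path, had the most negative. Its level was 94.4, 93.8, 92.1, 101 and 104 FPKM in hypoxia + PBM, against 108, 111, 103, 95.9 and 104 FPKM in hypoxia. The groups overlapped: light-treated replicates 4 and 5 lay above hypoxia replicate 4, and replicate 5 also above hypoxia replicate 3. The log2 change was -0.10 ± 0.045 (SE; limma adjusted p = 0.226). Ndufv1, which binds the flavin and NADH, averaged 123 ± 3.74 FPKM in hypoxia + PBM and 127 ± 5.92 FPKM in hypoxia (SD, n = 5 each). Ndufs1, the largest subunit and the carrier of several clusters, averaged 49.5 ± 1.42 FPKM in hypoxia + PBM and 50.5 ± 2.01 FPKM in hypoxia (SD, n = 5 each). Ndufs7, which lies at the ubiquinone site, had a log2 change of -0.024. Ndufs3, in the ubiquinone-binding part of the matrix arm, had -0.058, and Ndufs8, carrier of the clusters that lead to ubiquinone, had -0.056. Leaving out 1 library gave -0.084 to -0.034 for Ndufs3 and -0.081 to -0.018 for Ndufs8. In FPKM, the core subunits ranged from 50.0 (Ndufs1) to 125 (Ndufv1) as means over all libraries.

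Among the 9 accessory subunits of the matrix arm, 8 had negative changes and 1, Ndufa7, had a positive one, and the median was -0.065. Ndufv3, a small subunit at the tip of the arm beside the flavin site, had the most negative. It was at 37.3, 38.1, 35.0, 42.0 and 41.4 FPKM in hypoxia + PBM, against 43.6, 45.8, 42.6, 38.0 and 43.2 FPKM in hypoxia. Only hypoxia replicate 4 reached down into the range of the light-treated libraries, and the change was -0.13 ± 0.056 (log2, SE; limma adjusted p = 0.203). Ndufs4, whose loss in mice gives an encephalopathy like Leigh syndrome, averaged 45.6 ± 2.97 FPKM in hypoxia + PBM and 48.6 ± 1.62 FPKM in hypoxia (SD, n = 5 each; limma adjusted p = 0.266). Ndufa6, which binds the acyl carrier protein, averaged 138 ± 8.66 FPKM in hypoxia + PBM and 149 ± 11.0 FPKM in hypoxia (SD, n = 5 each; limma adjusted p = 0.304). Ndufa7 was at 134, 136, 132, 144 and 146 FPKM in hypoxia + PBM, against 109.6, 145, 146, 116.8 and 132 FPKM in hypoxia. Its spread was wide in hypoxia, where replicates 1 and 4 were low, and the change of 0.10 ± 0.072 (log2, SE) did not pass (limma adjusted p = 0.47).

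The 9 accessory subunits of the inner part of the membrane arm had the lowest median of the subunit groups, -0.082, with 8 negative changes. Ndufa1, a small X-linked subunit that the enzyme needs for assembly, was at 95.8, 105, 86.9, 92.7 and 100.5 FPKM in hypoxia + PBM, against 98.5, 110.0, 114, 106 and 108 FPKM in hypoxia. The groups overlapped through hypoxia replicate 1, which was below 2 light-treated libraries. Its change was -0.16 ± 0.052 (log2, SE; limma adjusted p = 0.119), the most negative of the 51 rows on log2(FPKM + 1). With a pseudocount of 0.1 and by limma-voom, Ndufaf6 was lower, at -0.20 and -0.21, against -0.16 for Ndufa1 in both fits. Ndufa11, an integral membrane subunit, was at 29.7, 29.2, 26.7, 30.7 and 29.9 FPKM in hypoxia + PBM, against 32.9, 32.99, 32.1, 29.7 and 30.4 FPKM in hypoxia. Hypoxia replicates 4 and 5 again lay within the light-treated range, and the change was -0.11 ± 0.044 (log2, SE; limma adjusted p = 0.183). Ndufa3, whose length of 351 bases behind the FPKM values is the shortest of the group, averaged 207 ± 18.5 FPKM in hypoxia + PBM and 221 ± 11.6 FPKM in hypoxia (SD, n = 5 each; limma adjusted p = 0.354). Ndufa13, also known as GRIM-19 for a role in cell death, had the only positive change of the group, 0.033.

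The outer part of the membrane arm, built around Ndufb subunits with the acyl carrier protein Ndufab1, had 14 rows with a median of -0.045, of which 11 were negative. These rows include Ndufb4b and Ndufb4c, copies of Ndufb4 that are not among the 37 subunits. Ndufb9, which binds the acyl carrier protein, had the highest level of the 37 subunits. It was at 268, 269, 265, 269 and 273 FPKM in hypoxia + PBM, against 289.5, 298, 296, 270.0 and 282 FPKM in hypoxia. In hypoxia + PBM 4 of 5 libraries lay below every hypoxia library, within 265 to 269 FPKM, and hypoxia replicate 4 again was the low one of its group. The change was -0.094 ± 0.033 (log2, SE) and did not pass (limma adjusted p = 0.138). Ndufb5 was at 106 ± 6.07 FPKM in hypoxia + PBM and 116 ± 8.51 FPKM in hypoxia (SD, n = 5 each; limma adjusted p = 0.213). Ndufab1, which also serves fatty acid synthesis in the matrix, had a change of -0.069. Ndufb3, Ndufb10 and Ndufb4b had positive changes of 0.057, 0.011 and 0.046. Leaving out 1 library gave -0.013 to 0.043 for Ndufb10 and -0.045 to 0.12 for Ndufb4b, so their sign rests on single libraries.

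**Figure D2:**
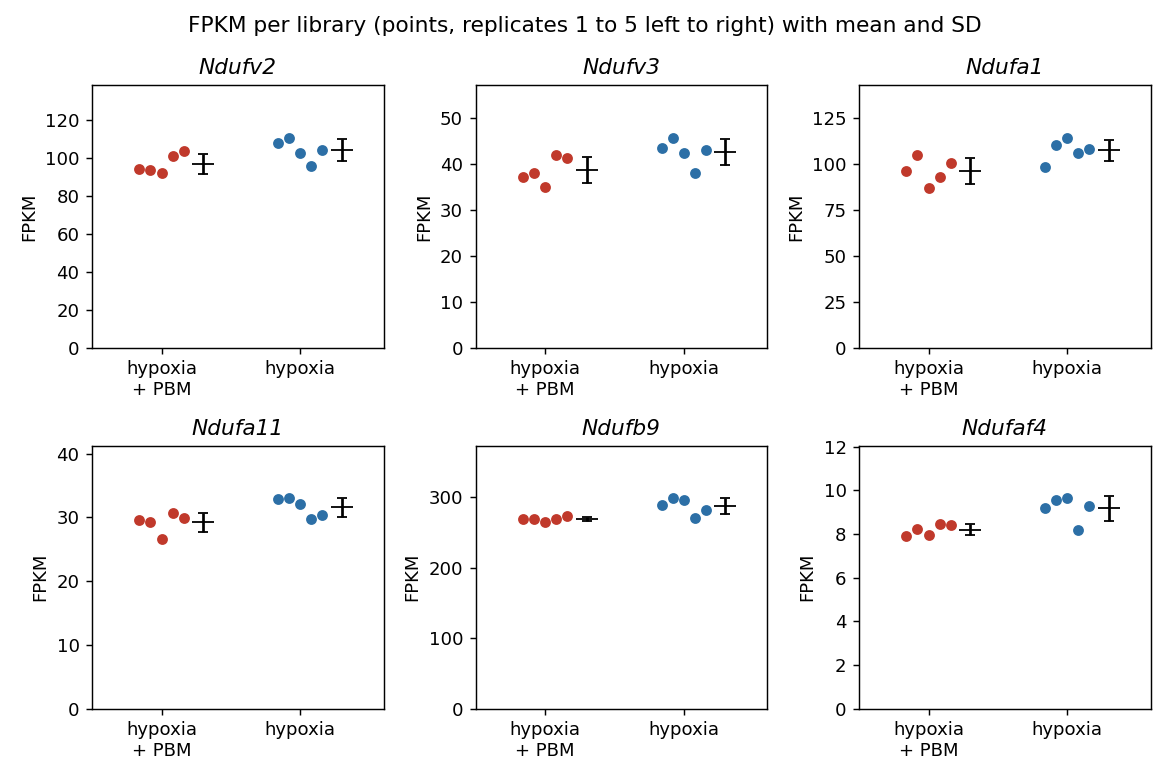
FPKM in each library for Ndufv2, Ndufv3, Ndufa1, Ndufa11, Ndufb9 and Ndufaf4, with hypoxia + PBM (red) left of hypoxia (blue); bars are mean and SD, n = 5 each. In all 6 panels the groups overlap, and in all but Ndufa1 hypoxia replicate 4 is the lowest of its group.

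Rows that resemble these genes by name need separate reading. Ndufa4 was named for complex I but is now placed in cytochrome c oxidase. It was at 507, 540, 464, 519 and 541 FPKM in hypoxia + PBM, against 575, 609, 582, 521 and 530 FPKM in hypoxia. The ranges overlapped through hypoxia replicates 4 and 5, and its change was -0.13 ± 0.053 (log2, SE; limma adjusted p = 0.196). Ndufa4l2, its paralog and a known target of hypoxia-inducible factor, was barely detected, at 0.8695 ± 0.223 FPKM in hypoxia + PBM and 0.946 ± 0.395 FPKM in hypoxia (SD, n = 5 each), from 19 to 52 reads per library. The rows Ndufb4b and Ndufb4c, Ndufs6b and Ndufab1-ps are copies of Ndufb4, Ndufs6 and Ndufab1. How the authors' counting treated reads shared between near-identical copies is not given, so the levels of these rows are uncertain. Ndufb4b was at 7.57 ± 0.843 FPKM in hypoxia + PBM and 7.37 ± 1.42 FPKM in hypoxia, where Ndufb4 itself was at 143 ± 10.01 FPKM in hypoxia + PBM and 149 ± 13.8 FPKM in hypoxia (SD, n = 5 each). Ndufab1-ps had a positive change of 0.15 ± 0.07 (log2, SE; limma adjusted p = 0.265). Its level was 8.86, 10.2, 7.29, 9.14 and 9.45 FPKM in hypoxia + PBM, against 7.89, 8.56, 8.24, 7.47 and 7.77 FPKM in hypoxia. In hypoxia + PBM 4 of 5 libraries lay above every hypoxia library, while replicate 3 lay below them all.

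Of the 8 assembly factors, 6 had negative changes and 2, Ndufaf5 and Ndufaf8, had positive ones. Ndufaf4, which works with Ndufaf3 on the part of the matrix arm that binds ubiquinone, was at 7.92, 8.24, 7.93, 8.46 and 8.42 FPKM in hypoxia + PBM, against 9.18, 9.54, 9.63, 8.18 and 9.30 FPKM in hypoxia. Every light-treated library lay below 4 of the 5 hypoxia libraries, and the exception was hypoxia replicate 4. The change was -0.14 ± 0.046 (log2, SE; limma adjusted p = 0.114), and without hypoxia replicate 4 it was -0.18 and was called (limma adjusted p = 0.03), the only leave-one-out fit of the 10 in which a member was called. Over all alternatives its adjusted p lay between 0.03 and 0.998, the highest with striatal markers in the model. Ndufaf3 itself averaged 21.8 ± 1.02 FPKM in hypoxia + PBM and 22.7 ± 0.361 FPKM in hypoxia (SD, n = 5 each; limma adjusted p = 0.388). Ndufaf6, needed at an early step of assembly, was at 1.599, 1.51, 1.36, 1.55 and 1.62 FPKM in hypoxia + PBM, against 1.95, 1.79, 1.77, 1.74 and 1.596 FPKM in hypoxia. Hypoxia replicate 5 lay among the light-treated libraries, and the change was -0.13 ± 0.05 (log2, SE; limma adjusted p = 0.159), a value that the pseudocount of 1 understates at this low level. Ndufaf1, of the membrane-arm assembly complex, had -0.063, Ndufaf2, a paralog of Ndufa12, had -0.074, and Ndufaf7, a methyltransferase that acts early in assembly, had -0.075. Ndufaf5, which hydroxylates Ndufs7, had 0.065, and its partner Ndufaf8 had 0.10 with the widest interval of the assembly factors, -0.11 to 0.31.

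Single libraries were low or high for many subunits at once. The summed level of the 37 subunits was 3937, 4145, 3800, 4117 and 4230 FPKM in hypoxia + PBM, against 4240, 4457, 4289, 3971 and 4059 FPKM in hypoxia. The groups overlapped: hypoxia replicates 4 and 5 lay within the light-treated range. Hypoxia + PBM replicate 3 was the lowest of the 10 libraries for 22 of the 37 genes, and hypoxia replicate 2 was the highest for 17 of them. The lowest library was a light-treated one for 29 genes and a hypoxia one for 8. As a share of reads, the 37 subunits took 0.375% ± 0.0144 in hypoxia + PBM and 0.389% ± 0.0170 in hypoxia (SD, n = 5 each).

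**Figure D3:**
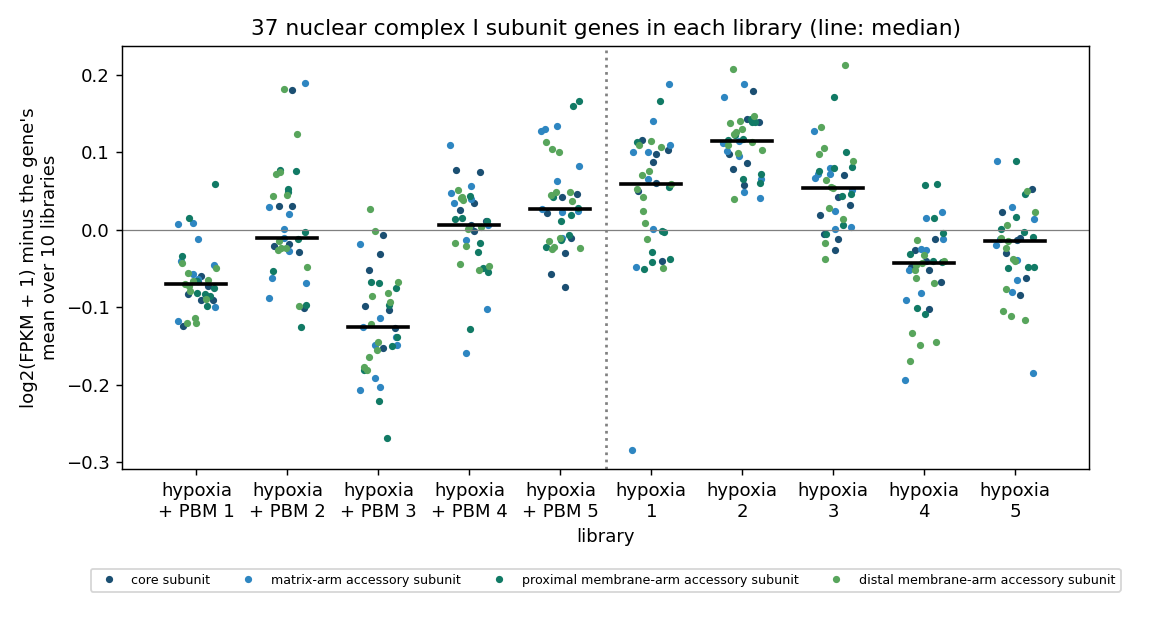
Each point is one of the 37 nuclear subunit genes in a library, as log2(FPKM + 1) minus that gene's mean over the 10 libraries; black lines are medians, and hypoxia + PBM stands left of the dotted line. The medians run from -0.12 (replicate 3) to 0.027 (replicate 5) in hypoxia + PBM and from -0.043 (replicate 4) to 0.12 (replicate 2) in hypoxia.

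The same libraries were low or high for other short mRNAs. The length behind the FPKM values was under 1000 bases for 21 of the 37 subunits, with a median of 845 bases, against 3743 bases over all tested genes. The 692 other tested genes under 1000 bases had a median log2 change of -0.037, and 62.0% of them were negative. For cytosolic ribosomal proteins, another group of short and abundant mRNAs, 91 of 96 tested genes were negative with a median of -0.093, and 0 were called higher and 1 was called lower. The median deviation of the ribosomal genes was lowest in hypoxia + PBM replicate 3 (-0.12) and highest in hypoxia replicate 2 (0.13), the same libraries as for the subunits. After the trend of each library on gene length was removed, the median of the 43 subunit rows was -0.023 with 26 negative. The median was then -0.059 for the ribosomal genes, -0.039 for the assembly factor rows and 0.0011 for the other genes under 1000 bases. In that fit, 1 member was called (background 4.42%), Ndufab1-ps with 0.19 (limma adjusted p = 0.0435, against 0.0659 to 0.597 for this row under the other alternatives). Ndufaf4 (3632 bases) and Ndufaf6 (4309 bases) are longer, and Ndufaf4 kept -0.14 in that fit.

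**Figure D4:**
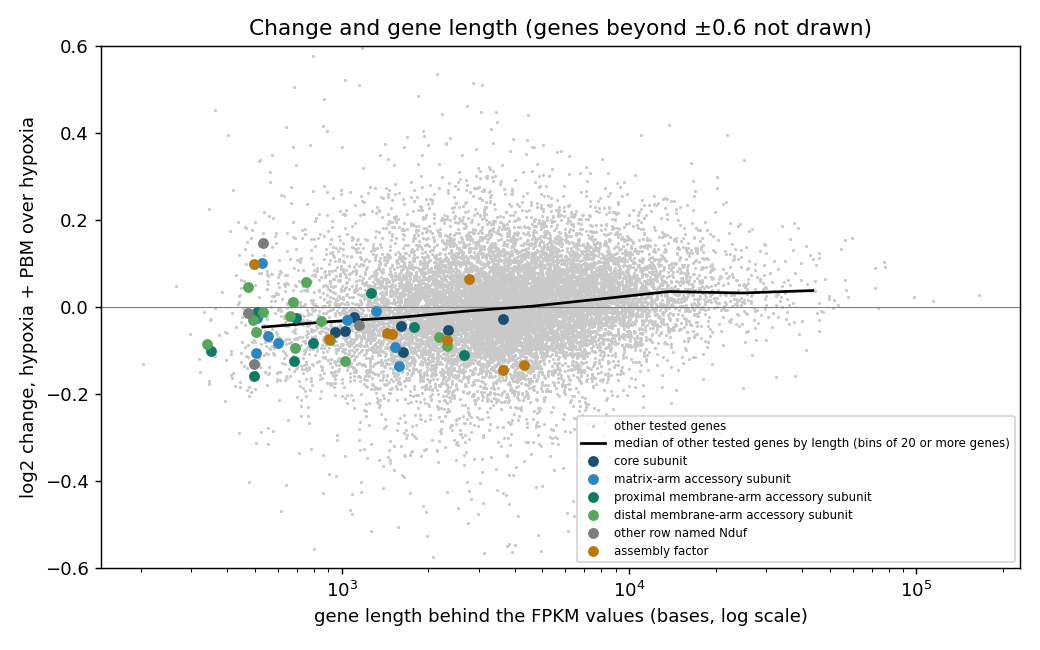
Log2 change (hypoxia + PBM over hypoxia) against gene length on a log axis for the 51 members (coloured by role) and the other tested genes (grey), with the median of the other genes in length bins as a black line. The line runs from -0.046 at a median length of 532 bases to 0.038 at 43621 bases, and most subunits lie at its short end; 34 genes beyond ±0.6 are not drawn.

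Other genes of complex I were not called by limma-trend either. All 7 subunits encoded in mitochondrial DNA were tested, with 0 called by limma-trend (2 at an unadjusted p under 0.05), 4 negative and 3 positive changes and a median of -0.011. ND1, which sits where the arms meet, was at 6206, 5972, 5762, 6156 and 6793 FPKM in hypoxia + PBM, against 6766, 6746, 7040, 6651 and 6651 FPKM in hypoxia. In hypoxia + PBM 4 of 5 libraries lay below every hypoxia library and replicate 5 lay among them, with a change of -0.13 ± 0.053 (log2, SE; limma adjusted p = 0.184). ND1 was called under quantile normalization, at -0.071 (limma adjusted p = 0.00341), a smaller change than the -0.13 of the main fit. It was also called by limma-voom, at -0.13 (adjusted p = 0.0489). No other gene of these lists was called in either fit. Over all alternatives the adjusted p of ND1 lay between 0.00341 and 0.998. ND6, the only one of these genes on the other strand of the mitochondrial genome, was at 548, 720, 457, 477 and 594 FPKM in hypoxia + PBM, against 486, 510, 509, 321 and 391 FPKM in hypoxia. Its groups overlapped and its change was 0.34 ± 0.14 (log2, SE; limma adjusted p = 0.204). No source used here says whether strand was kept, so ND6 reads cannot be told apart from antisense reads of the opposite strand. Of 12 further assembly factors, 11 were listed and tested, with 0 called by limma-trend (0 at an unadjusted p under 0.05) and a median of -0.029. Lyrm2, an assembly factor for the matrix arm, averaged 14.2 ± 0.585 FPKM in hypoxia + PBM and 13.3 ± 1.20 FPKM in hypoxia, and Tmem186, of the membrane-arm assembly complex, averaged 4.86 ± 0.161 FPKM in hypoxia + PBM and 5.25 ± 0.482 FPKM in hypoxia (SD, n = 5 each). For the other complexes of the chain, the median log2 change was -0.026 over 4 genes of complex II, -0.055 over 9 of complex III, -0.081 over 17 of cytochrome c oxidase and -0.048 over 17 of ATP synthase.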

How the data were processed

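RNA from prefrontal cortex of 5 hypoxia + PBM and 5 hypoxia libraries was compared. Total RNA was extracted with TRIzol and prepared with a VAHTS V10 RNA-seq kit, per the labels' protocols. The build GRCm39 and the tools fastp 1.0, HISAT2 and HTSeq come from the submitters' processing notes, with settings and annotation not given in the sources used here. Expression was deposited as an FPKM value for each gene and library, without pooling, per the file headers. The authors also deposited group means as a signal (counts divided by DESeq2 size factors), a linear fold change, a log2 fold change, and a p-value and q-value of their own comparison, per the file headers. Values from that comparison are printed beside the words authors' deposited table.

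FPKM values were tested by limma-trend (limma 3.58.1, R 4.3.3) on log2(FPKM + 1), group alone in the model, over 14406 genes with at least 0.1 FPKM in at least 5 libraries. A call is a two-sided Benjamini-Hochberg adjusted p under 0.05 over all tested genes, with no fold minimum. Fold changes on this scale understate those of low genes. From the FPKM columns and the deposited group means, whole reads and gene lengths were recovered: 100% of values were whole within 0.01 reads, and 100% of lengths were whole within 0.01 bases. Reads served for depth, shares and limma-voom, and intervals reflect the spread between 5 libraries a group. Within groups, every pair of libraries differed by more than counting noise (chi-square per gene of 5.97 to 13.8).

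The members, lists, motifs and tests were chosen with earlier results of these data known. Genes named in the text were the 3 with the smallest p in each of 4 role groups (core, matrix-arm accessory, membrane-arm accessory as 1 group, assembly), the 3 highest and 3 lowest levels, all nuclear core subunits, Ndufa4, Ndufa4l2 and the 2 other complex I genes with the smallest p in each list. Of the core subunits, 1 is not reported here by name. Members named beyond these were chosen after their values were seen. Alternatives were another pseudocount, other filters and scalings, limma-voom, a replicate block, a striatal covariate, removal of the length trend and leaving out each library.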

Additional observations from a re-analysis of the deposited data

How the results depend on the processing

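No complex I member was called under the other filters, the pseudocount of 0.1, upper-quartile scaling, quantile normalization, limma-voom, the replicate block or the striatal covariate. With the length trend removed 1 was called, and leaving out 1 library gave 0 to 1. Members at an unadjusted p under 0.05 by limma-trend were 10 of 51 in the main fit. Shares over all tested genes in each fit stand in brackets. The count was 5 without hypoxia replicate 1 (16.4%), hypoxia replicate 2 (17.1%) or hypoxia + PBM replicate 1 (16.8%). It was 6 without hypoxia + PBM replicate 3 (16.8%) and 7 without hypoxia replicate 3 (18.5%). It was 13, 15 and 16 without hypoxia + PBM replicate 4 (18.1%), hypoxia + PBM replicate 5 (19.6%) and hypoxia replicate 4 (21.1%). It was 12 with the length trend removed (20.8%) or quantile normalization (19.9%), and 9 with the replicate block (18.7%) or upper-quartile scaling (19.8%). The count over all tested genes, 411, was 637 with the length trend removed, 0 with the striatal covariate (910 at an unadjusted p under 0.05, limma) and 200 to 538 when 1 library was left out, being 200, 265 and 210 without hypoxia replicates 1, 2 and 5 and 210, 268 and 221 without hypoxia + PBM replicates 1, 2 and 3. Of the other complex I genes, 1 was called by limma-voom and 1 under quantile normalization, ND1 each time, and 0 in the fits that left out 1 library. The median log2 change of the subunit rows was 0.039 with the striatal covariate and that of the assembly factors was 0.0040. Over the 37 subunits alone, a choice made after seeing the data, the median was -0.057. Leaving out 1 library gave -0.078 to -0.036 for subunits and -0.082 to -0.059 for assembly factors.

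The replicate numbers are shared by the groups. Deviations of same-numbered libraries correlated at -0.072 to 0.21, and those of differently numbered ones at -0.29 to 0.35. Whether same-numbered libraries shared any handling was not tested. With a replicate block 256 genes were called in all and 0 members. Only the libraries numbered 2 correlated best with their own number (0.21), and those numbered 1, 3, 4 and 5 correlated best with another.

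Of the 51 members, 11 turned from negative to positive with the length trend removed, 27 with the striatal covariate, 4 under quantile normalization and 3 under upper-quartile scaling, and 14 changed sign in at least 1 leave-one-out fit. Among the genes named by rule, the length trend's removal turned Ndufb4c (0.019) and Ndufs7 (0.0064) positive, and the striatal covariate did so for Ndufv2 (0.035), Ndufs3 (0.053), Ndufv3 (0.081), Ndufs4 (0.045), Ndufa6 (0.010), Ndufa11 (0.023), Ndufaf3 (0.012), Ndufa4 (0.019), Ndufs1 (0.019), Ndufs7 (0.10) and Tmem186 (0.013), none of them called. Leaving out 1 library gave -0.13 to 0.043 for Ndufa4l2, -0.079 to 0.031 for Ndufb4c and -0.072 to 0.012 for Ndufs7. The cause of these changes was not tested. Upper-quartile scaling moved the share of lower genes among all calls from 59.6% to 50.5%. Depth limits Ndufa4l2, Ndufb4c and Ndufs6b, which rest on few reads.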
